A study of Mus musculus with 6 samples.

Results

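The genes described here are 10 chemokines that osteoblasts are known to secrete: *Ccl2*, *Ccl7*, *Ccl5*, *Ccl9*, *Cxcl5*, *Cxcl10*, *Cxcl12*, *Cxcl14*, *Cxcl16* and *Cx3cl1*. They were chosen by name, as rows of the deposited table that carry these symbols, and 9 of the 10 were found among its 24016 genes. *Cxcl14* was not analysed here. The cells were MC3T3-E1 subclone 4, a wild-type preosteoblast line from mouse calvaria, so that all cultures came from a single clonal line. Cells were differentiated over 6 days with β-glycerophosphate at 10 mM and ascorbic acid at 50 μg/ml. For 24 h they were then given vehicle or corticosterone at 100 nM, which is the glucocorticoid that circulates in mice. The labels list 10 nM calcitriol, the active form of vitamin D, for both groups. RNA of 3 cultures per group was sequenced, and the study calls them biological replicates.

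Chemokines are small secreted proteins that guide leukocytes and progenitor cells along a gradient by activating G protein-coupled receptors. Their families are named for the spacing of the first cysteines of the mature protein, which are adjacent in CC chemokines, 1 residue apart in CXC chemokines and 3 residues apart in the CX3C chemokine. In bone, osteoblast-lineage cells use them to hold blood-forming stem cells in the marrow and to draw in monocytes, which include the precursors of bone-resorbing osteoclasts. Glucocorticoids are widely known to lower inflammatory chemokine transcripts, and the study asked how corticosterone changes gene expression in osteoblasts.

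Of the 9 genes measured, 4 are CC, 4 are CXC and 1 is CX3C by name. The cysteine spacing of the named family was then looked up in each coding sequence. The stretch that sets the family is shown for the 4 genes that passed the test and for *Cx3cl1*. Each is a coding run of 30 bases from GENCODE M21 transcripts (GRCm38), read along the gene, with the codons of the paired cysteines in capitals.
*Ccl2*, plus strand, chr11:82036500-82036529: ctcaccTGCTGCtactcattcaccagcaag
*Ccl7*, plus strand, chr11:82046532-82046561: tccacaTGCTGCtatgtcaagaaacaaaag
*Ccl9*, minus strand, chr11:83575908-83575937: tcagatTGCTGCctgtcctataactcacgg
*Cxcl12*, plus strand, chr6:117171502-117171531: taccgaTGCcccTGCcggttcttcgagagc
*Cx3cl1*, plus strand, chr8:94778045-94778074: acgaaaTGCgaaatcatgTGCgacaagatg
The first 3 have no codon between the capitals, *Cxcl12* has 1 and *Cx3cl1* has 3. *Ccl2* and *Ccl7* shared no 31-base run with a transcript of any other gene, nor did *Cx3cl1*, so that reads of these neighbouring relatives could be told apart.

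The libraries held 16020401 to 25638645 counted reads, fewer in each of the 3 corticosterone libraries than in any vehicle library. Values are normalized counts, which are reads divided by 1 size factor per library, and a count of 3 reads, taken as the floor, equals 2.32 to 3.84. Vehicle replicates 1 and 2 differed most among libraries of 1 group. The labels' cell type was checked on 6 osteoblast markers, all of them in the table, and corticosterone lowered all 6 (limma, adjusted p under 0.05). The osteocalcin gene *Bglap* fell most, from 232 ± 33.8 to 63.5 ± 11.4 (SD, n = 3, log2 fold change -1.87). The collagen gene *Col1a1* fell least, by a log2 fold change of -0.15. The glucocorticoid target genes *Tsc22d3*, *Fkbp5*, *Sgk1* and *Per1* rose in the corticosterone libraries, by log2 fold changes of 1.49 to 2.75. In bulk RNA, fewer cells of a kind and less RNA per cell cannot be told apart, and this holds for every value given here.

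Corticosterone moved these chemokines in both directions. *Cxcl12* and *Ccl9* rose, *Ccl2* and *Ccl7* fell, and the other 5 did not pass the test. The test was limma on log2(normalized count + 0.1) over all 24016 genes, and a gene passed with a Benjamini-Hochberg adjusted p under 0.05. Among all genes tested, 8.49% passed as higher and 8.20% as lower, against 2 and 2 of the 9 chemokines. Genes of low counts seldom pass, and 8 of the 9 chemokines had a mean of at least 10. In a fit of only the 13880 genes with such a mean, 2190 passed as higher and 2125 as lower. The chemokines again gave 2 and 2. The study, which used DESeq2, further asked for an absolute log2 fold change over 1. With that demand on the limma fit, *Ccl9* remained as higher and *Ccl2* as lower. By limma, 1.38% of all genes were past that threshold as higher and 1.40% as lower. By DESeq2, *Ccl2* was past it as lower. No chemokine was past it as higher by DESeq2, which put *Ccl9* at 0.98. Groups did not overlap for 5 of the 9, and for 29.6% of all genes. The median log2 fold change was -0.35 for the 9 genes and -0.01 for all genes tested, and over the 8 chemokines with a mean of at least 10 it was -0.18. Since n was 3 per group, an exact permutation test of a single gene (two-sided) cannot give a p below 0.1, which was the value for each of the 5 genes without overlap.

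**Figure D1:**
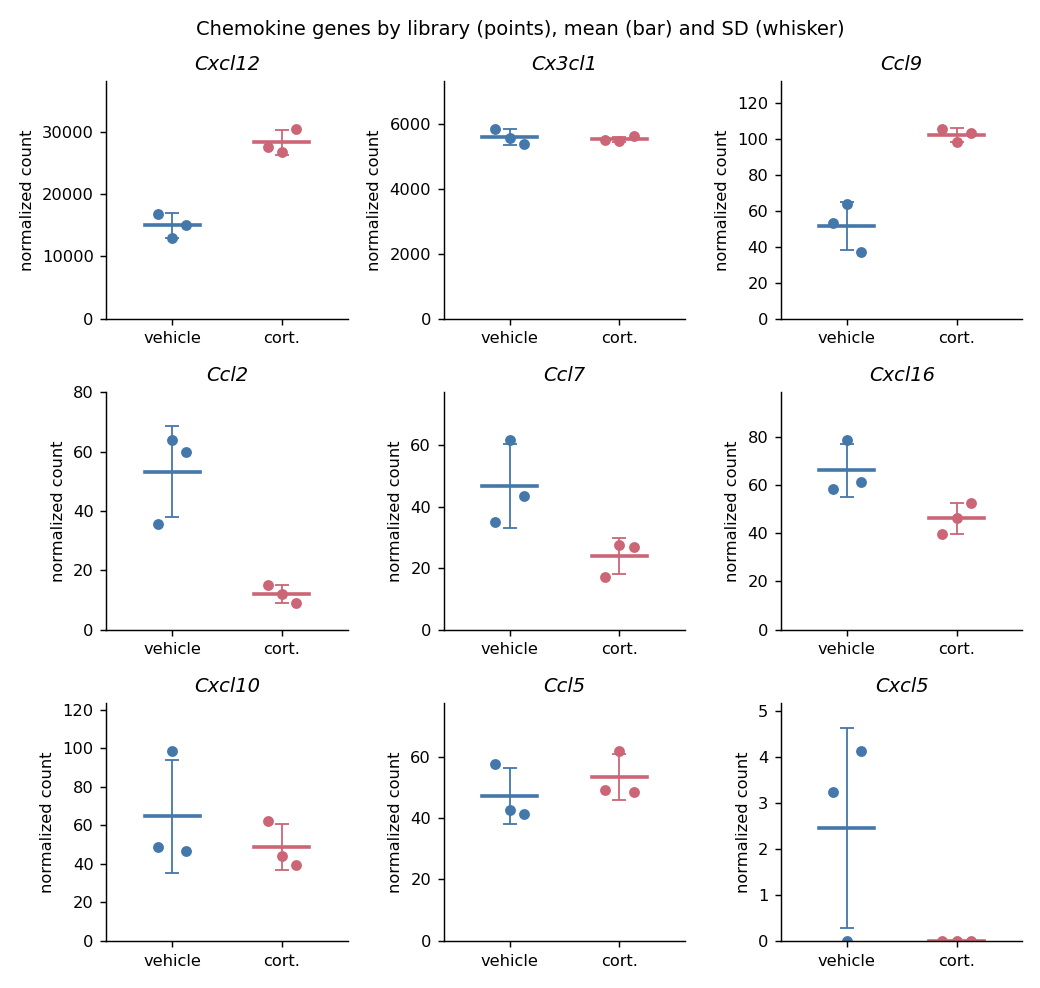
Normalized counts (y axis, starting at 0, a scale of its own for each gene) of 9 chemokine genes in 3 vehicle and 3 corticosterone (cort.) libraries, with points for libraries, bars for means and whiskers for SD. The groups stand apart for *Cxcl12*, *Ccl9*, *Ccl2*, *Ccl7* and *Cxcl16*, and 1 vehicle library lies far above the others for *Cxcl10*.

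*Cxcl12* encodes stromal cell-derived factor 1, which holds blood-forming stem cells and B cell precursors in the marrow through the receptor CXCR4. It was the most abundant of the chemokines, and it rose. Its normalized counts were 16795, 12941 and 15092 with vehicle and 27593, 26739 and 30488 with corticosterone. Every corticosterone library lay well above every vehicle library. The mean went from 14943 ± 1931 to 28273 ± 1965 (SD, n = 3), which is 1.89-fold, with a log2 fold change of 0.93 (SE 0.07, 95% interval 0.77 to 1.08, limma adjusted p = 7.4e-08). At least 14591 reads stood behind each value. The SE draws on a variance trend over genes. With no variance trend the limma adjusted p was 0.022, and with a robust prior variance it was 0.0084. Leaving out any library kept the adjusted p under 0.05, with log2 fold changes of 0.83 to 1.01. Without vehicle replicate 1 the gene crossed the fold threshold, at 1.01. The gene spans 117168535 to 117181367 of chromosome 6 (GRCm38, plus strand).

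*Ccl2* and *Ccl7* encode the monocyte chemoattractant proteins 1 and 3, ligands of the receptor CCR2 that bring monocytes out of the marrow and into tissue. They lie next to each other on the plus strand of chromosome 11, *Ccl2* at 82035571 to 82037453 and *Ccl7* at 82045712 to 82047525, with starts 10.1 kb apart. Both fell. No other gene of the table starts within 500 kb of *Ccl2*. Normalized counts of *Ccl2* were 35.7, 64.1 and 60.0 with vehicle and 14.99, 12.1 and 8.96 with corticosterone. The lowest vehicle library was still more than the highest corticosterone library. The mean went from 53.2 ± 15.3 to 12.0 ± 3.02 (SD, n = 3), which is 4.43-fold lower, with a log2 fold change of -2.12 (SE 0.34, 95% interval -2.83 to -1.41, limma adjusted p = 2.1e-04). Reads numbered 44 to 83 with vehicle and 7 to 14 with corticosterone, so that the counting error of the treated values is large. *Ccl2* was past both limits in all 6 fits that left out a library, with log2 fold changes of -2.39 to -1.93.

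For *Ccl7*, the counts were 34.9, 61.7 and 43.4 with vehicle and 17.1, 27.6 and 26.9 with corticosterone. The groups did not overlap, but the lowest vehicle and the highest corticosterone library were close. The mean went from 46.7 ± 13.7 to 23.9 ± 5.85 (SD, n = 3), which is 1.96-fold lower, with a log2 fold change of -0.96 (SE 0.30, 95% interval -1.59 to -0.33, limma adjusted p = 0.036). This call rested on single libraries. The limma adjusted p was 0.19 without vehicle replicate 2, 0.15 without vehicle replicate 3, 0.15 without corticosterone replicate 1, 0.055 without corticosterone replicate 2 and 0.086 without corticosterone replicate 3, and it held only without vehicle replicate 1 (0.042, log2 fold change -1.15). On the recovered reads, edgeR gave an adjusted p of 0.016 and DESeq2 one of 0.042. Within a library, the ratio of *Ccl2* to *Ccl7* does not depend on scaling. It was 1.02, 1.04 and 1.38 with vehicle and 0.875, 0.440 and 0.333 with corticosterone, so that *Ccl2* went from slightly more counts than its neighbour to fewer in every library. The mean log2 ratio was 0.18 ± 0.24 with vehicle and -0.98 ± 0.71 with corticosterone (SD, n = 3), a difference of -1.16 with an exact permutation p of 0.1, the smallest that 3 against 3 libraries allow.

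**Figure D2:**
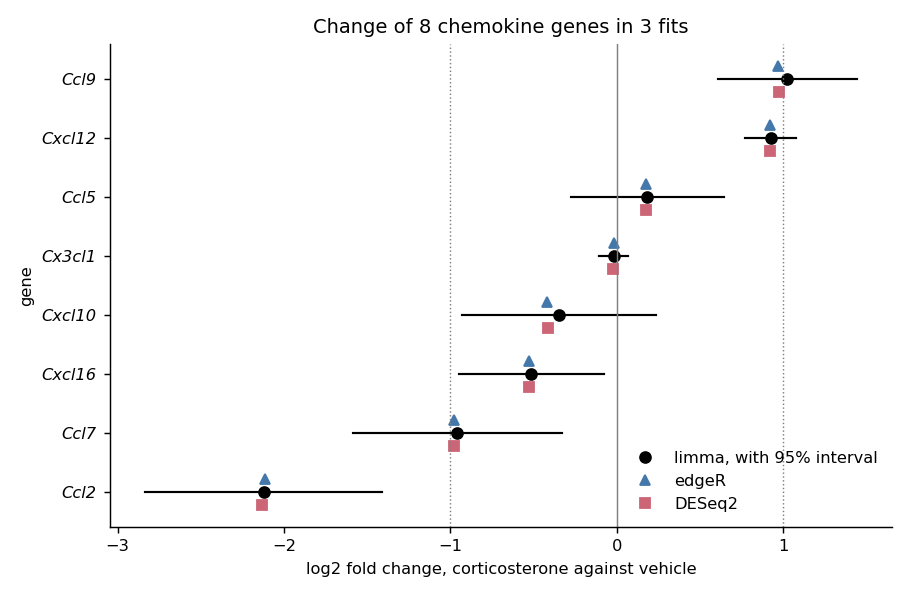
Log2 fold change of corticosterone against vehicle (x axis) for the 8 chemokine genes whose mean was 10 or more, showing limma estimates and 95% intervals as circles and lines, edgeR as triangles and DESeq2 as squares, and dotted lines at -1 and 1. The 3 tools gave nearly the same values, with *Ccl2* at -2.12 by limma and the *Ccl9* estimates on either side of 1.

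*Ccl5* and *Ccl9* belong to a second CC cluster on chromosome 11 and lie on its minus strand, *Ccl5* at 83525778 to 83530518 and *Ccl9* at 83572919 to 83578636, with starts 48.1 kb apart. *Ccl9* encodes macrophage inflammatory protein 1γ, a ligand of CCR1 that attracts osteoclast precursors and is itself made by osteoclasts. It rose. Its counts were 53.5, 64.1 and 37.2 with vehicle and 106, 98.3 and 104 with corticosterone. The treated libraries were close to each other and all above the vehicle libraries. The mean went from 51.6 ± 13.5 to 103 ± 3.94 (SD, n = 3), which is 1.99-fold, with a log2 fold change of 1.03 (SE 0.20, 95% interval 0.61 to 1.44, limma adjusted p = 0.0013). The adjusted p stayed under 0.05 whichever library was left out, while the fold change fell below the threshold without vehicle replicate 3, at 0.81. By edgeR the log2 fold change was 0.97 and by DESeq2 0.98. Of its 31-base runs, 3.98% also lie in transcripts of other genes.

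*Ccl5* encodes RANTES, which attracts T cells and monocytes. Its counts were 57.6, 42.5 and 41.4 with vehicle and 49.2, 61.9 and 48.6 with corticosterone. The groups overlapped, and the lowest values belonged to vehicle libraries. The means were 47.1 ± 9.06 and 53.2 ± 7.47 (SD, n = 3), and the log2 fold change of 0.18 had a 95% interval of -0.28 to 0.64 (limma adjusted p = 0.68). Within 500 kb of its start the table held 29 genes, 5 of them chemokines, and 14 with a mean of at least 10. Apart from *Ccl9*, 2 of these neighbours passed both limits, and both were higher with corticosterone. They were *Wfdc18*, which encodes a whey acidic protein domain protein (28.9 to 79.8, log2 fold change 1.49, limma adjusted p = 5.8e-04), and *Slfn2*, a schlafen gene of leukocyte quiescence (16.1 to 64.1, 1.99, limma adjusted p = 6.3e-05). Both were named after their values were seen. The chemokines *Ccl6*, *Ccl3* and *Ccl4* of the same cluster were measured with means of at most 1.93 in either group, under the floor.

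**Figure D3:**
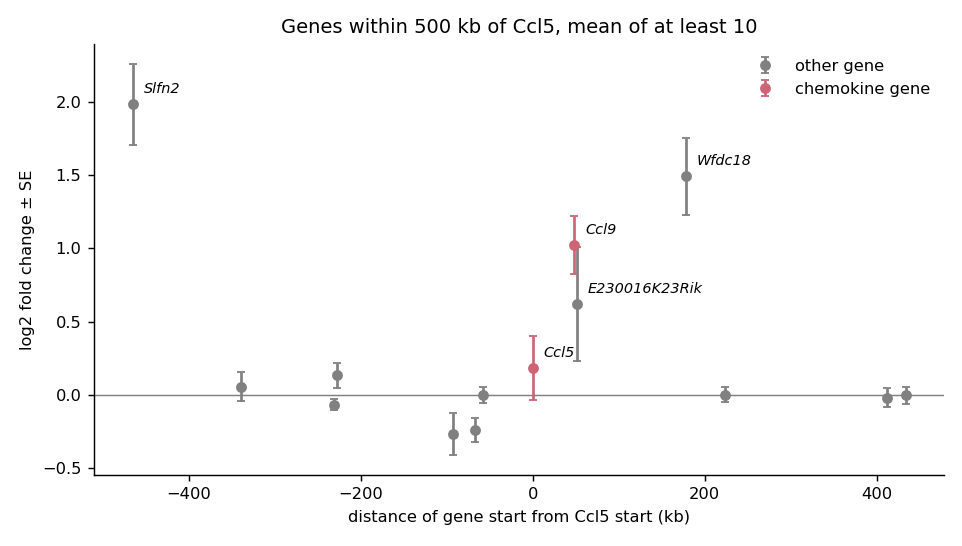
Log2 fold change ± SE by limma (y axis) of the 14 genes with a mean of at least 10 that start within 500 kb of the start of *Ccl5*, against the distance of the starts in kb (x axis). *Ccl9* lies at 48.1 kb with 1.03, *Ccl5* at 0.18, and most other genes near 0.

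*Cxcl10* and *Cxcl5* are inflammatory CXC chemokines of chromosome 5. *Cxcl10* (92346638 to 92348889, minus strand) encodes an interferon-induced ligand of CXCR3 that attracts activated T cells. Its counts were 48.7, 98.8 and 46.5 with vehicle and 62.1, 44.2 and 39.7 with corticosterone. Vehicle replicate 2 stood well above the rest, and the other 5 libraries overlapped. The means were 64.7 ± 29.6 and 48.6 ± 11.9 (SD, n = 3), and the log2 fold change was -0.35 (95% interval -0.93 to 0.24, limma adjusted p = 0.49). Without vehicle replicate 2 it was 0.00. The same library was also the highest for the interferon-responsive gene *Irf7*, at 110.4 against 56.8 and 66.2 in the other vehicle libraries, which was named after its values were seen. Its part in the *Cxcl10* value was not tested. *Cxcl5* (90759360 to 90761624, plus strand) encodes a neutrophil attractant that binds CXCR2. It had 4, 0 and 4 reads with vehicle and 0 in each corticosterone library, which is too near the floor for a fold change (limma adjusted p = 0.21). Without vehicle replicate 2, which had no read, limma gave an adjusted p of 0.039 for it.

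The remaining members are made as transmembrane proteins with a chemokine head on a stalk, which proteases can cut to release a soluble ligand. *Cxcl16* (chromosome 11, 70453983 to 70459984, minus strand) binds CXCR6 on T cells and also takes up oxidized lipoprotein. Its counts were 58.4, 78.7 and 61.0 with vehicle and 39.6, 46.4 and 52.5 with corticosterone. No corticosterone library reached the lowest vehicle library, yet the gene did not pass the test. The means were 66.0 ± 11.1 and 46.2 ± 6.42 (SD, n = 3), with a log2 fold change of -0.51 (95% interval -0.95 to -0.08 before adjustment, limma adjusted p = 0.11), and none of the other settings tried brought its adjusted p under 0.05. Exons of *Zmynd15* on the opposite strand cover 18.3% of its exonic bases, and whether the counting used the strand is not stated in the sources used here. *Zmynd15* itself was listed at 2.21 to 6.21.

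*Cx3cl1* (chromosome 8, 94772009 to 94782427, plus strand) encodes fractalkine, which binds CX3CR1 on monocytes and osteoclast precursors. It was the second most abundant of the chemokines. Its counts were 5868, 5587 and 5377 with vehicle and 5502, 5482 and 5630.2 with corticosterone. The corticosterone libraries lay within the range of the vehicle libraries. The means were 5611 ± 247 and 5538 ± 80.6 (SD, n = 3), and the log2 fold change was -0.02 with a 95% interval of -0.11 to 0.07 (limma adjusted p = 0.85). This interval was the narrowest of the 9 genes. *Cx3cl1* had at least 4401 reads per library, and *Cxcl12*, with at least 14591, had a wider interval.

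Levels of different genes were compared as normalized counts per kb of exon, for the 8 genes other than *Cxcl5*, which was lower than all of them in both groups. The length joined the exons of all annotated transcripts of a gene, and comparisons between genes depend on it. Which of these transcripts the cells made was not tested. With vehicle, *Cxcl12* stood at 1828 ± 236 and *Cx3cl1* at 1428 ± 62.8 per kb (SD, n = 3), and their libraries did not overlap. All others were far lower, with *Ccl7* at 58.3, *Ccl5* at 49.1, *Ccl2* at 46.8, *Cxcl10* at 28.7, *Cxcl16* at 21.9 and *Ccl9* at 16.9 per kb. Each neighbouring pair from *Ccl7* down to *Ccl9* overlapped between libraries. With corticosterone, *Cxcl12* reached 3458 ± 240 per kb and *Cx3cl1* 1409 ± 20.5 (SD, n = 3). *Ccl5* came next at 55.5, followed by *Ccl9* at 33.7, *Ccl7* at 29.8, *Cxcl10* at 21.6, *Cxcl16* at 15.3 and *Ccl2* at 10.6 per kb. Libraries of *Ccl9* and *Ccl7*, of *Ccl7* and *Cxcl10*, and of *Cxcl16* and *Ccl2* overlapped in this order. *Ccl2* thus stood in the middle of the order with vehicle and below the other 7 with corticosterone, and *Ccl9* stood below the other 7 with vehicle and above *Ccl7* in the mean with corticosterone.

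**Figure D4:**
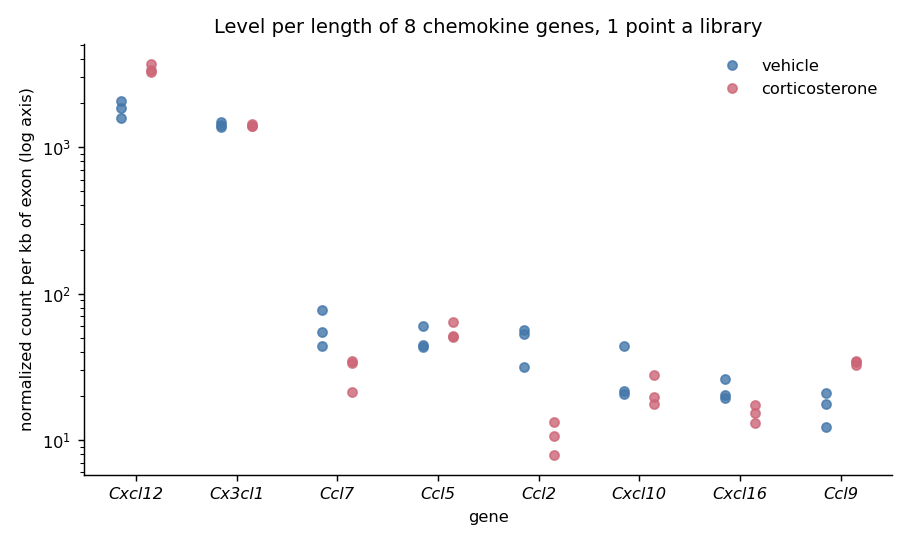
Normalized count per kb of exon (y axis, log scale) of 8 chemokine genes, with 1 point for each of the 3 vehicle and 3 corticosterone libraries. *Cxcl12* and *Cx3cl1* lie between 1368 and 3729 in all 6 libraries, the others at 77.1 or less.

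Shares of the summed chemokine transcripts depend on each other, so that the higher level of *Cxcl12* with corticosterone lowers the shares of all the others, *Cx3cl1* among them, whose own level did not pass the test. Of the summed levels per kb of the 9 genes, it made up 54.9%, 48.4% and 54.0% with vehicle and 68.4%, 67.5% and 70.1% with corticosterone. *Cx3cl1* made up 39.9%, 43.4% and 40.0% with vehicle and 28.4%, 28.8% and 26.9% with corticosterone. The ratio of *Cxcl12* to *Cx3cl1* per kb was 1.11 to 1.38 with vehicle and 2.34 to 2.60 with corticosterone. The other 7 genes together took 5.21%, 8.21% and 6.01% with vehicle and 3.27%, 3.65% and 3.03% with corticosterone. Their summed normalized counts were 292, 409.8 and 294 with vehicle and 289, 290.5 and 280.2 with corticosterone, so that vehicle replicate 2 stood above the other 5 libraries, which were alike. Among the vehicle libraries, replicate 2 had the highest counts of *Ccl2*, *Ccl7*, *Ccl9*, *Cxcl10* and *Cxcl16* and the lowest of *Cxcl12*.

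RefSeq promoters of GRCm38.p6 were at hand for 4 of the 9 genes, *Cxcl12*, *Ccl9*, *Cxcl10* and *Cx3cl1*. Those of 3 genes are shown because the genes took different courses, higher for the first pair and not past the test for *Cxcl10*. Each is the 250 bases before the start of the gene, in its direction. The kB consensus bound by the NF-κB family and the glucocorticoid receptor half-site AGAACA, motifs that do not overlap, were searched on both strands, and kB matches are in capitals.
*Cxcl12*, plus strand, chr6:117168285-117168534: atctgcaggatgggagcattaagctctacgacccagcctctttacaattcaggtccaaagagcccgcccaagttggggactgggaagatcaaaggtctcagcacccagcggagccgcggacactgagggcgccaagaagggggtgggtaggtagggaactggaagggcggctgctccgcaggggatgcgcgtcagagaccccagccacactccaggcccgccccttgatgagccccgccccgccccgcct
*Ccl9*, minus strand, chr11:83578637-83578886: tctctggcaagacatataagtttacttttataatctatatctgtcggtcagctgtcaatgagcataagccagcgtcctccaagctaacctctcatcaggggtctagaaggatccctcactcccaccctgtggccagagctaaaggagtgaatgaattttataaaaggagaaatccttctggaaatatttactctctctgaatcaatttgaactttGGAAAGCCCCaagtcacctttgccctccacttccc
*Cxcl10*, minus strand, chr5:92348890-92349139: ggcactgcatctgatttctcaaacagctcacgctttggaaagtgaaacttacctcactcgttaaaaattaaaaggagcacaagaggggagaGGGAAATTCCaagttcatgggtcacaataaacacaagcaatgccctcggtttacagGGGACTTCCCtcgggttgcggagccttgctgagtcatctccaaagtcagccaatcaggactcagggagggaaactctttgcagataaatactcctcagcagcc
*Ccl9* held 1 kB match, which began 35 bases before the start, and *Cxcl10* held matches at 159 and 103 bases. No match was found in the windows of *Cxcl12* and *Cx3cl1*, and AGAACA was in none of the 4. Of 32851 promoters of this length, 3.90% held a kB match and 16.1% held AGAACA.

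Among 24 chemokine receptor genes listed, 13 were in the table, of which 1 passed the test as higher and 2 as lower. Over all genes tested, 8.49% passed as higher and 8.20% as lower. *Cxcr4*, the signalling receptor of CXCL12, fell while its ligand gene rose. Its counts were 154.9, 149 and 152 with vehicle and 52.5, 55.2 and 66.5 with corticosterone. The groups were far apart, with a log2 fold change of -1.39 (SE 0.15, limma adjusted p = 2.9e-06). *Ackr3*, which encodes the scavenging receptor of CXCL12, had means of 202 ± 7.51 and 172 ± 8.62 (SD, n = 3) and did not pass (limma adjusted p = 0.15), although its groups did not overlap. *Ccrl2*, a non-signalling receptor that presents the attractant chemerin, rose from 7.15 ± 0.621 to 41.8 ± 11.3 (SD, n = 3, log2 fold change 2.49, limma adjusted p = 1.3e-04). *Ackr4*, a scavenger of other CC chemokines and the most abundant receptor gene, fell from 1521 ± 189 to 1302 ± 31.6 (SD, n = 3, limma adjusted p = 0.049), with overlapping groups. *Cxcr6*, the receptor gene of CXCL16, had means of 31.04 and 37.5 and did not pass (limma adjusted p = 0.66).

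Of 15 genes listed for cutting or presenting chemokines, 14 were in the table, and 5 passed as higher and 4 as lower. These counts are from the fit of all 24016 genes, where 8.49% passed as higher and 8.20% as lower. All 14 had a mean of at least 10. In a fit of only the 13880 genes with such a mean, 2190 passed as higher and 2125 as lower. The list was not counted again in that fit. *Adam17*, whose product sheds CX3CL1 and CXCL16, rose from 1425 ± 80.5 to 2013 ± 50.3 (SD, n = 3, log2 fold change 0.50, limma adjusted p = 2.5e-06). *Adam10*, the other sheddase of both ligands, had means of 3360 and 3211 and did not pass (limma adjusted p = 0.39). *Mmp9*, a matrix protease that can cut CXCL12, fell from 2733 ± 196 to 1037 ± 82.3 (SD, n = 3, log2 fold change -1.40, limma adjusted p = 1.3e-10), and it alone in this list was past the fold threshold. Other matrix proteases that can cut CXCL12 did not go this way. *Mmp2*, the most abundant gene of the list, had means of 34972 and 33884 and did not pass (log2 fold change -0.04, limma adjusted p = 0.59), and *Mmp14* rose from 15109 ± 1438 to 17489 ± 424 (SD, n = 3, log2 fold change 0.22, limma adjusted p = 0.0096). Heparan sulfate proteoglycans hold chemokines at the cell surface and in the matrix, and their core protein genes did not move as a group. *Sdc1*, *Sdc4* and *Hspg2* rose, with log2 fold changes of 0.59, 0.49 and 0.18, whereas *Sdc2*, *Sdc3* and *Gpc1* fell, with -0.84, -0.91 and -0.82.

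**Figure D5:**
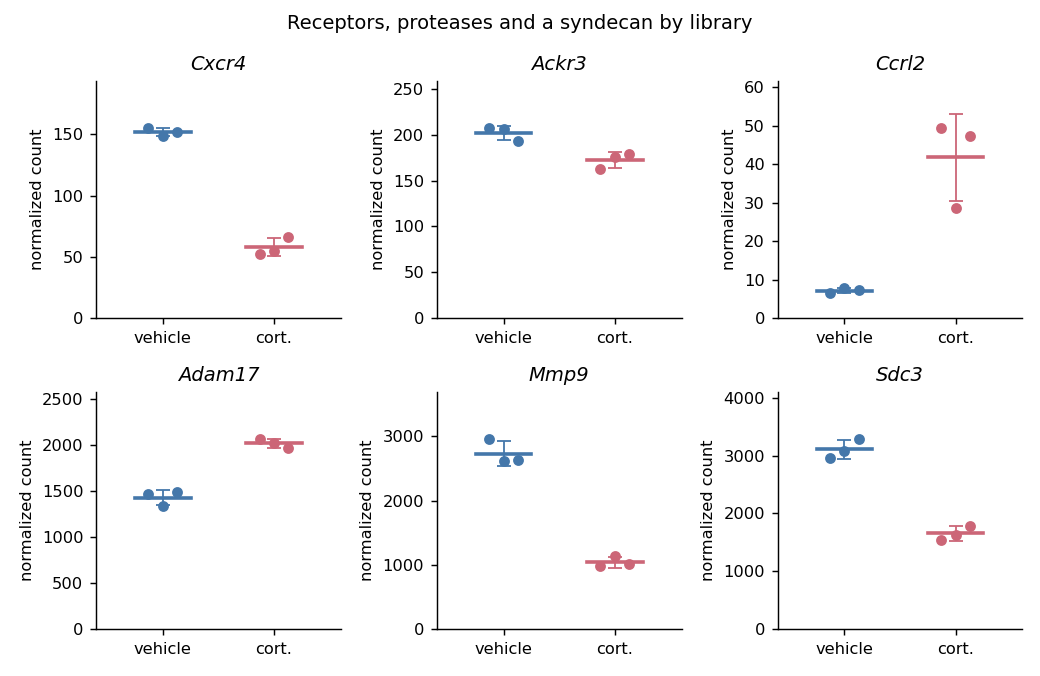
Normalized counts (y axis, starting at 0) of genes whose products bind, cut or present chemokines, in 3 vehicle and 3 corticosterone (cort.) libraries, with points for libraries, bars for means and whiskers for SD. The groups stand apart in all 6 panels, lower with corticosterone for *Cxcr4*, *Ackr3*, *Mmp9* and *Sdc3* and higher for *Ccrl2* and *Adam17*, of which *Ackr3* did not pass the test.

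Of 31 other chemokine ligand genes listed, 13 were in the table and only 3 had a mean of at least 10. These were *Ccl25* (102 ± 14.3 and 111 ± 6.21, limma adjusted p = 0.63), *Ccl27a* (46.2 ± 11.4 and 51.2 ± 18.6, 0.87) and *Ccl17* (13.9 ± 2.68 and 22.8 ± 6.17, SD, n = 3, 0.27), each with vehicle first. *Pf4*, the platelet factor 4 gene, passed the test as lower (limma adjusted p = 0.044) but had no read with corticosterone and stood near the floor with vehicle.

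Leukocytes and blood vessel cells also make these chemokines. Of 8 macrophage and myeloid markers 4 were in the table, and their summed counts were 340 to 388 with vehicle and 295 to 340 with corticosterone. *Lyz2*, the lysozyme gene and the highest of them, was lower with corticosterone (229 ± 12.2 to 178 ± 15.4, SD, n = 3, limma adjusted p = 0.020). The other 3 did not pass the test. They were *Csf1r*, *Cd68* and *Cd14*, with log2 fold changes of -0.49, -0.06 and 0.07 (limma adjusted p = 0.46, 0.94 and 0.84). The defining markers *Ptprc*, *Adgre1*, *Itgam* and *Tyrobp* were not among the genes of the table. Summed T cell markers were 3.86 to 5.17 with vehicle and 1.07 to 3.31 with corticosterone, and summed endothelial markers were 0 to 10.5 and 1.07 to 12.8, with 2 of 4 of each list in the table. The adipocyte markers *Adipoq* and *Cidec* were not in the table, which held 2 of the 4 listed. Summed counts of those 2 went from 7.72 to 21.1 with vehicle to 108 to 133 with corticosterone. This came from *Fabp4*, the fatty acid-binding protein gene (14.8 ± 6.71 to 121 ± 11.5, SD, n = 3, limma adjusted p = 1.3e-06), since *Plin1* had no read with vehicle and a mean of 0.853 with corticosterone. The part of these markers in the chemokine values was not tested.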

How the data were processed

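RNA-seq of 6 cultures, 3 with vehicle and 3 with corticosterone, used a NEBNext Ultra RNA kit and was sequenced commercially on an Illumina platform. The submitters' processing notes name the build mm10. The aligner, the counting program and its use of strand are not given in the sources used here. The authors deposited 1 table holding a signal per gene and library, named FPKM. All values were whole multiples of 1 step per library (tolerance 0.01 reads), so they are counts divided by 1 size factor of 0.782 to 1.30.

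Groups came from the sample titles. The members and lists were chosen with earlier results of these data known. Differences were tested with limma 3.58.1 in R 4.3.3 (variance trend) on log2(value + 0.1), with Benjamini-Hochberg adjustment. A mean of at least 0.1 was asked for, which removed no gene. As in the study, a gene was past the threshold where its log2 fold change exceeded 1 in size and its adjusted p was below 0.05. The study applied these limits to DESeq2 results. All 10 chemokines are named, and genes of the lists where they were past the threshold, were the most abundant or bind or process a member. Some listed genes enter the counts only and are not reported here by name. Single values were compared by exact permutation tests. The p-values measure the spread between these cultures, and those of limma also draw each gene's variance toward a trend over genes.

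The alternatives were edgeR 4.0.16 (quasi-likelihood test) and DESeq2 1.42.0 on the recovered reads, other pseudocounts, filters and scalings, the replicate block, other variance models and leaving out each library. The fits were tested on simulated data. GENCODE M21 gave the positions and symbols, for 23983 genes, while 33 had none. Python 3.11.15 with scipy 1.17.1 was used for the tables. The floor of 3 reads covers counting error only.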

Additional observations from a re-analysis of the deposited data

How the results depend on the processing

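None of the 4 called genes reversed in the 14 settings and the 6 fits without 1 library. *Cxcl5*, which was not called, had values in 11 of the 14. *Ccl2* as lower held in all 20. *Cxcl12* as higher held in all 20 at the adjusted p. The number of chemokines past the threshold as higher was 1, and it became 0 with no variance trend, with scaling to the same total, by edgeR, by DESeq2 and by edgeR with the replicate block, because *Ccl9* left it. Its log2 fold change was 0.97 to 0.99 in the last 4, and its limma adjusted p was 0.072 with no variance trend. With no variance trend, 1 chemokine passed the adjusted p as higher and 1 as lower, in place of 2 and 2, and 873 genes passed as higher and 760.0 as lower, in place of 2040.0 and 1970.0. With a pseudocount of 0.01, 1 chemokine passed as lower, *Ccl7* having an adjusted p of 0.052. The causes were not tested.

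Leaving out 1 library gave 0 to 2 chemokines past the threshold as higher and 1 to 2 as lower, and 1 to 2 with an adjusted p under 0.05 as lower. Over all genes it gave 253 to 331 past the threshold as higher and 204 to 321 as lower, and 1419 to 1873 with an adjusted p under 0.05 as higher and 1148 to 1611 as lower. The difference of the log2 ratio of *Ccl2* to *Ccl7* was -1.56 to -0.87. It was -1.11 with a pseudocount of 1.

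The labels number the cultures 1 to 3 in both groups without saying that they were paired. Deviations of same-numbered cultures correlated by -0.02, 0.01 and 0.02 over 13880.0 genes, so the numbers were not taken to pair them. With the replicate block, limma passed 297 genes as higher and 294 as lower past the threshold and changed no call of a chemokine.

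Depth limits the genes of low counts. *Ccl2* rested on 7 to 14 reads per treated library and *Cxcl5* on 8 reads in all. Results for these say less than those for *Cxcl12*.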

Other observations

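NF-κB, interferon and hypoxia signalling drives many chemokine genes. All 20 genes listed for it were in the table, and 3 passed the test as higher, 3 as lower and none was past the fold threshold. These counts are from the fit of all 24016 genes, where 8.49% passed as higher and 8.20% as lower. All 20 had a mean of at least 10. In a fit of only the 13880 genes with such a mean, 2190 passed as higher and 2125 as lower. The list was not counted again in that fit. *Nfkbia*, which encodes the inhibitor that holds NF-κB in the cytoplasm, rose from 1099 ± 13.5 to 1942 ± 113 (SD, n = 3, log2 fold change 0.82, limma adjusted p = 8.9e-09). *Nfkb1* and *Hif1a* rose by log2 fold changes of 0.20 and 0.23. *Relb*, *Irf1* and *Nfkb2* fell, with log2 fold changes of -0.55, -0.47 and -0.27. These 6 were named after their values were seen. *Tnfrsf1a*, the most abundant of the list, had means of 5548 and 5796 and did not pass (limma adjusted p = 0.39).

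Many chemokine transcripts carry AU-rich elements, through which RNA-binding proteins and stress kinases speed up or slow down their decay. Of 9 genes listed for either role, all in the table, 5 passed as higher and 1 as lower. These counts are from the fit of all 24016 genes, where 8.49% passed as higher and 8.20% as lower. All 9 had a mean of at least 10, for which the fit of 13880 genes passed 2190 as higher and 2125 as lower. The list was not counted again in that fit. *Dusp1*, which encodes a phosphatase that switches off the stress kinases protecting such transcripts, rose from 438 ± 39.1 to 1124 ± 43.1 (SD, n = 3, log2 fold change 1.36, limma adjusted p = 6.2e-10) and was past the fold threshold. *Zfp36l2*, the most abundant, rose by a log2 fold change of 0.47, and *Zfp36*, which encodes tristetraprolin, by 0.32. *Zfp36l1* of the same family fell, at -0.43. *Mapk14*, which encodes the stress kinase p38α that protects such transcripts, was also among those that rose, by a log2 fold change of 0.16 (limma adjusted p = 0.023), while *Mapkapk2*, the kinase gene downstream of it, and *Elavl1*, which encodes a stabilizing protein, did not pass (limma adjusted p = 0.65 and 0.79). *Zfp36*, *Zfp36l1* and the last 3 genes were named after their values were seen.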
